A study of Homo sapiens with 3 samples.

Results

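The 10 genes described here encode transcription factors that give B cells their identity, together with the coactivator POU2AF1. They are PAX5, EBF1, TCF3, POU2F1, POU2F2, POU2AF1, SPIB, SPI1, ETS1 and FOXP1, taken from the raw count table by symbol, and all 10 were found among its 15808 genes. The 3 replicate libraries all come from OCI-Ly10 given MZ1 for 6 h. This established line derives from a human lymphoma of activated B cell-like type, and MZ1 is a compound that brings BET bromodomain proteins to the VHL ubiquitin ligase for degradation. The labels give 1 group, no dose, and no word on whether the replicates were separate cultures, and untreated cells and the other lines the series names were not analysed here. Levels and their spread are therefore described, and no effect of MZ1 was estimated. Chi-square p-values measure only the spread between these libraries, which may be technical. Permutation p-values ask only whether a gene differed in level from another within these libraries.

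B cell development is set up by a small circuit of DNA-binding proteins. The E protein made by TCF3 and the factor EBF1 open B lineage genes in early progenitors and switch on PAX5, which activates genes of the B cell receptor and its signalling and holds genes of other lineages and of plasma cells down. In mature B cells the octamer-binding proteins of POU2F1 and POU2F2 recruit the coactivator POU2AF1 to immunoglobulin and other B cell promoters. SPIB and SPI1 encode closely related ETS factors that bind purine-rich sites, ETS1 encodes another member of that family, and FOXP1 encodes a forkhead factor often abundant in lymphomas of the activated type.

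Promoter sequence is shown for the highest and the lowest of the 10 genes by length-scaled level. RefSeq windows (GRCh38.p14) were matched for 7 of the 10 genes, 14 windows in all because some genes have several starts. The first run below is the 250 bases before the SPIB start (chr19:50418688-50418937, plus strand), with the letters TATAAA in capitals, 29 to 24 bases before the start. The next is a 100-base stretch from 229 to 130 bases before the third POU2F1 start in that table (chr1:167328841-167328940, plus strand), with the octamer in capitals as it reads on this strand, 179 to 172 bases before the start.
SPIB: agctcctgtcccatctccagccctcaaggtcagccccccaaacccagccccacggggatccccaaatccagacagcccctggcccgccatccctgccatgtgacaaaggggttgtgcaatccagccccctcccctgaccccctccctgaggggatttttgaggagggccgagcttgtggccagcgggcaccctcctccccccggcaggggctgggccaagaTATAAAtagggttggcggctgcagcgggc
POU2F1: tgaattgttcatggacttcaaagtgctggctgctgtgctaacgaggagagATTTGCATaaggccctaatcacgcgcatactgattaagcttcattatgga
The octamer ATGCAAAT, searched on both strands, was present in 1 of the 14 windows and in 1.77% of all 34943 windows of 300 bases. The letters TATAAA were present in 2 of the 14, in SPIB and PAX5, and in 11.6% of all windows. Also searched on both strands were CAGGTG, a site of E proteins, in 2 of the 14 and 20.6% of all, CCCNNGGG, the core of EBF1 sites, in 2 and 19.0%, and GAGGAA, the purine box of SPIB and SPI1, in 6 and 27.9%. Of those 6 windows 3 are of POU2F1, and 2 of these start 1 base apart and hold the same match. A match describes letters only, and the gene counts do not show which start was used.

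The 3 libraries differ in depth and in base composition. Totals were 5474462, 1441246 and 1314812 counts in replicates 1, 2 and 3. Levels are given as CPM, the count relative to a library size scaled with TMM factors, so that 1 count was worth 0.20, 0.629 and 0.767 CPM. A count of 0 allows up to 0.60, 1.89 and 2.30 CPM, the value of 3 counts, and such limits and all intervals cover counting error only. The median gene in the most GC-rich of 20 bins fell by 1.72 on the log2 scale from replicate 1 to replicate 2 and by 0.20 from replicate 1 to replicate 3. All 10 genes reached 1 CPM in every library, where 68.0% of the genes in the table did, and 9 of the 10 reached 5 CPM, where 48.5% did. SPI1 passed in replicate 3 on 2 counts only, at 1.53 CPM (exact 95% interval 0.186 to 5.54 CPM), under that library's limit of 2.30 CPM. Together the 10 genes took 0.310% of the counts in replicate 1 (exact 95% interval 0.306 to 0.315%), 0.519% in replicate 2 (0.508 to 0.531%) and 0.570% in replicate 3 (0.557 to 0.583%). POU2F2 and SPIB alone made up 71.5%, 77.6% and 82.1% of those counts.

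**Figure D1:**
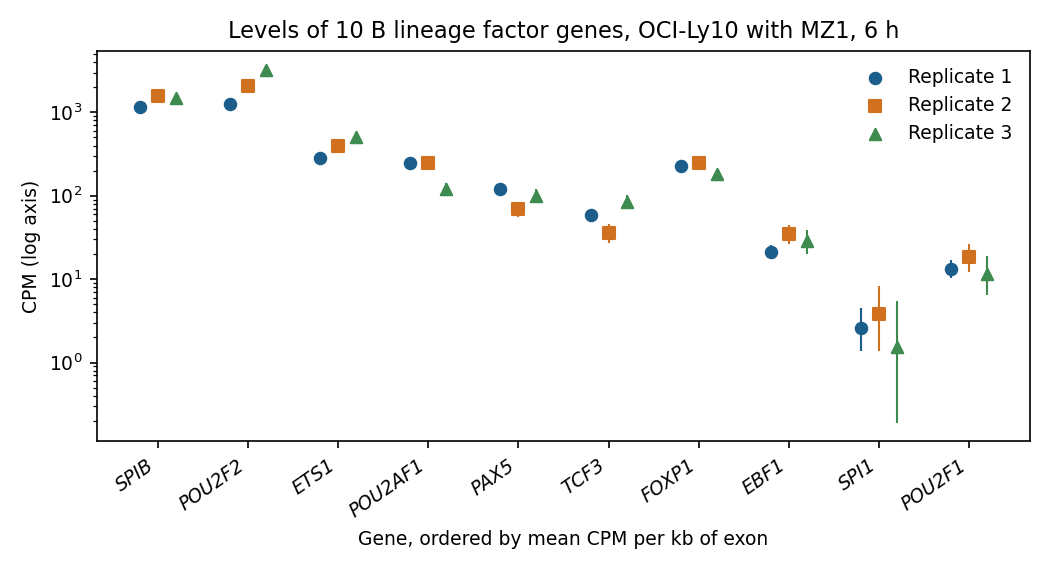
Level of each gene in CPM (log axis) in replicates 1, 2 and 3, with genes ordered by mean CPM per kb of exon; points are libraries and bars exact Poisson 95% intervals of the counts. The lowest library of SPIB and POU2F2 is at 1157 CPM, and the highest of SPI1 at 3.77 CPM.

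By mean CPM per kb of exon, PAX5 lay above 80.8% of all genes with an exon length, TCF3 above 80.0% and EBF1 above 65.8%. PAX5 (ENSG00000196092.11, chromosome 9, 36833275 to 37034185, minus strand, GRCh38 as for all positions below) had 119, 68.5 and 100.5 CPM in replicates 1, 2 and 3, a mean of 96.1 ± 25.7 CPM (SD, n = 3; means below are given in the same way). Replicate 1 was highest and replicate 2 lowest. EBF1 (ENSG00000164330.15, chromosome 5, 158695916 to 159099761, minus strand) had 21.2, 34.6 and 28.4 CPM, from 106, 55 and 37 counts, a mean of 28.05 ± 6.69 CPM. Here replicate 1 was lowest, the reverse of PAX5. TCF3 (ENSG00000071564.13, chromosome 19, 1609290 to 1652605, minus strand) had 58.4, 35.8 and 83.6 CPM, a mean of 59.3 ± 23.9 CPM, with replicate 2 lowest. All 3 are protein-coding genes.

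Levels of different genes can be compared only per length, so CPM were divided by kb of merged exon, the summed length of all annotated exons of a gene. On that scale PAX5 had 10.3 ± 2.75 and EBF1 4.54 ± 1.08 CPM per kb. The log2 ratio of PAX5 to EBF1 was 1.87, 0.38 and 1.21 in the 3 libraries. Its mean was 1.15 ± 0.75, or 2.23-fold, with PAX5 higher in 3 of 3 libraries (exact two-sided sign-flip permutation p = 0.25, 0.30 adjusted over 6 pairs). From the counts, the fold was 3.73 in replicate 1 (exact 95% counting interval 3.03 to 4.63) and 2.34 in replicate 3 (1.62 to 3.47). In replicate 2 it was 1.31 (0.940 to 1.85), an interval that includes equal levels. With 3 libraries 0.25 is the smallest p this test can give, so no pair could pass 0.05.

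The genes of the octamer-binding pair lay far apart in level. POU2F2 (ENSG00000028277.19, chromosome 19, 42086110 to 42196585, minus strand), whose product is largely restricted to B cells and some neural cells, had 1271, 2073 and 3253 CPM in replicates 1, 2 and 3, a mean of 2199 ± 997 CPM. Replicate 3 was the highest, at 2.56 times replicate 1. POU2F1 (ENSG00000143190.20, chromosome 1, 167220829 to 167427345, plus strand), whose product is made in most tissues, had 13.2, 18.2 and 11.5 CPM, from 66, 29 and 15 counts, a mean of 14.3 ± 3.50 CPM. Its exact Poisson intervals overlap among all 3 libraries and run from 10.2 to 16.8, 12.2 to 26.2 and 6.44 to 19.0 CPM.

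Per kb of exon POU2F2 had 242 ± 110 and POU2F1 0.890 ± 0.217 CPM. The log2 ratio of POU2F2 to POU2F1 was 7.36, 7.62 and 8.91, a mean of 7.96 ± 0.83 or 249-fold, with POU2F2 higher in 3 of 3 libraries (exact permutation p = 0.25, 0.30 adjusted). The coactivator gene POU2AF1 (ENSG00000110777.10, chromosome 11, 111352252 to 111455630, minus strand) had 244, 245 and 120 CPM, a mean of 203 ± 71.6 CPM and 27.4 ± 9.65 CPM per kb. Replicates 1 and 2 had almost the same level and the highest library was at 2.04 times replicate 3, while POU2F2 was highest in replicate 3.

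Of the ETS factors, SPIB was abundant and SPI1 close to the detection limit. SPIB (ENSG00000269404.5, chromosome 19, 50418938 to 50431313, plus strand) had 1157, 1581 and 1467 CPM, a mean of 1401 ± 219 CPM, with replicate 1 lowest. By mean CPM per kb SPIB ranked 111 and POU2F2 144 among the 15668 genes with a length. SPI1 (ENSG00000066336.10, chromosome 11, 47354860 to 47378576, minus strand), a factor of both myeloid cells and B cells, had 13, 6 and 2 counts, or 2.60, 3.77 and 1.53 CPM. Its intervals run from 1.38 to 4.44, 1.38 to 8.21 and 0.186 to 5.54 CPM, so no difference between the libraries was detectable at this depth. In bulk RNA, few cells with a transcript and little RNA in each cell cannot be told apart.

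Per kb of exon SPIB had 327 ± 51.3 and SPI1 1.27 ± 0.541 CPM. From the counts, without a pseudocount, SPIB exceeded SPI1 by 215-fold in replicate 1 (exact 95% counting interval 126 to 404), 203-fold in replicate 2 (92.9 to 553) and 462-fold in replicate 3 (128 to 3818). On the log2 scale with a pseudocount of 0.5 CPM the ratio was 7.81 ± 0.55, higher in 3 of 3 libraries (exact permutation p = 0.25, 0.30 adjusted). ETS1 (ENSG00000134954.13, chromosome 11, 128458761 to 128587558, minus strand), a factor of T cells and B cells, had 284, 398 and 504 CPM, a mean of 396 ± 110 CPM and 55.3 ± 15.4 CPM per kb. Replicate 1 was lowest and replicate 3 highest, the same order as POU2F2. The log2 ratio of SPIB to ETS1 per kb was 2.59 ± 0.27, or 6.02-fold (exact permutation p = 0.25, 0.30 adjusted).

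FOXP1 (ENSG00000114861.17, chromosome 3, 70952817 to 71583993, minus strand) had 227, 248 and 180 CPM, a mean of 218 ± 34.5 CPM. Its place among the 10 genes rests on which length is used, because GENCODE lists 76 transcripts whose merged exons span 36.714 kb, against 8994 bases for the longest single transcript. With merged exons FOXP1 had 5.94 ± 0.939 CPM per kb and lay below PAX5 and TCF3, and with the longest transcript of each gene it had 24.3 CPM per kb and lay above PAX5 at 11.2 and TCF3 at 13.3. The ratio of FOXP1 to FOXP4, a relative expressed at 11.8 ± 5.06 CPM, was 1.66 ± 0.83 on the log2 scale per kb of merged exon and 3.64 with longest transcripts (exact permutation p = 0.25, 0.30 adjusted, for the former).

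**Figure D2:**
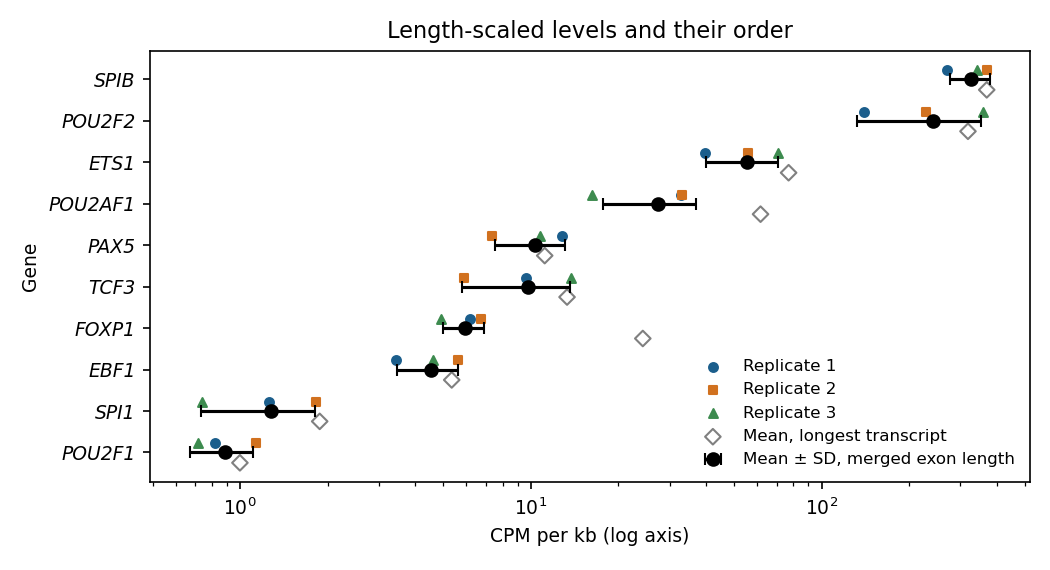
CPM per kb of exon (log axis) for the 10 genes; filled points with bars are mean ± SD over 3 libraries with merged exon length, small symbols are single libraries, and open diamonds are means with the longest transcript. SPIB at 327 and POU2F2 at 242 lie apart from the other genes, and FOXP1 moves most between the length scales, from 5.94 to 24.3.

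In falling order of mean CPM per kb the genes were SPIB, POU2F2, ETS1, POU2AF1, PAX5, TCF3, FOXP1, EBF1, SPI1 and POU2F1. Neighbours were held apart when the log2 ratio had 1 sign in all 3 libraries and exceeded its SD, which was the case for 5 of the 9 neighbouring pairs. These 5 were POU2F2 over ETS1 by 2.06 ± 0.27, ETS1 over POU2AF1 by 1.05 ± 0.95, POU2AF1 over PAX5 by 1.37 ± 0.79, EBF1 over SPI1 by 1.65 ± 0.54 and SPI1 over POU2F1 by 0.68 ± 0.24. The last rests on 13, 6 and 2 counts of SPI1, with 0.742 against 0.716 CPM per kb in replicate 3 before the pseudocount, and turns without length correction. ETS1 over POU2AF1 depends on the length used. With longest transcripts, of 5139 and 3295 bases, their means were 77.0 and 61.6 CPM per kb. On that scale POU2AF1 was the higher in replicate 1, so the pair does not meet the rule. SPIB and POU2F2 did not differ beyond their spread, at 0.53 ± 0.53, and POU2F2 was the higher in replicate 3. PAX5 and TCF3, TCF3 and FOXP1, and FOXP1 and EBF1 also did not differ beyond theirs, while PAX5 lay above EBF1 by the same rule. The median over the 10 genes was 10.0 CPM per kb, where the median of all 15668 genes with a length was 2.22.

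A chi-square test of its 3 counts asked whether each gene varied between libraries, over all genes averaging at least 10 counts and with Benjamini-Hochberg adjustment. SPI1 was too low for the test. Of the 9 others, 8 varied between libraries beyond counting noise, in a table where 67.2% of 10016 tested genes did. Among genes averaging at least 50 counts 80.3% varied, and the 8 varying factor genes are all in that class. POU2F1 did not pass (adjusted p = 0.290). By the chi-square test EBF1 had an adjusted p of 0.0161, FOXP1 0.00102, TCF3 2.35e-06, PAX5 1.07e-06, POU2AF1 4.87e-16, ETS1 6.87e-35 and SPIB 8.52e-44, and that of POU2F2 was too small to be written.

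Several of these calls rest on 1 library. EBF1 no longer passed without replicate 1 (chi-square test, adjusted p = 0.359) or without replicate 2 (0.208), nor with depth made equal (0.411) or levels corrected for GC content (0.146). POU2AF1 lost the call without replicate 3 (adjusted p = 0.941), the library in which it was lowest. FOXP1 lost it without replicate 3 as well (0.191), and PAX5 without replicate 2 (0.135). POU2F2, SPIB, ETS1 and TCF3 passed whichever library was left out. In replicates 2 and 3 alone 7 of the 9 genes varied, against 33.8% of all genes tested there, and with the libraries thinned to equal depth also 7, against 63.0%. Both shares cover all genes averaging at least 10 counts, and most of the factor genes lie well above that. Shares among deeper genes were not computed in these settings, so neither comparison is matched for depth.

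The SD of log2(CPM + 0.5) over the 3 libraries had a median of 0.41 over the 9 factor genes of at least 10 CPM and of 0.49 over all 7510 such genes. Of the 9, POU2F2 at 0.68, TCF3 at 0.61 and POU2AF1 at 0.59 exceeded that median. SPIB and FOXP1 were the steadiest, both at 0.24. Replicate 2 held the highest level of 5 of the 9 genes, where it held that of 28.7% of all genes of at least 10 CPM. Replicate 3 held that of 3, against 28.2%, and replicate 1 that of PAX5, against 43.1%.

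Differences between libraries moved with GC content over all genes, and its part in those of the factor genes was not tested. PAX5 fell by 0.80 on the log2 scale from replicate 1 to replicate 2, where the median of the 374 genes in its GC bin fell by 0.43. TCF3, at 61.2% GC, fell by 0.70 where its bin fell by 1.28. POU2F2 and SPIB, at 54.7% and 56.8% GC, lay on the other side of 0, with differences of 0.71 and 0.45 where their bins had medians of -0.69 and -0.74. From replicate 1 to replicate 3 the difference for POU2F2 was 1.36 (bin median -0.23), for ETS1 0.82 (bin median -0.03) and for POU2AF1 -1.01 (bin median -0.23). Levels were also corrected by the bin medians of each gene's log2 deviation from its mean over the 3 libraries. With that correction 7 of the 9 genes varied, where 60.9% of all tested genes did. Corrected levels of POU2F2 were 1017, 2655 and 3104 CPM, and those of SPIB 884, 2130 and 1342 CPM, a wider spread for SPIB than before the correction.

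**Figure D3:**
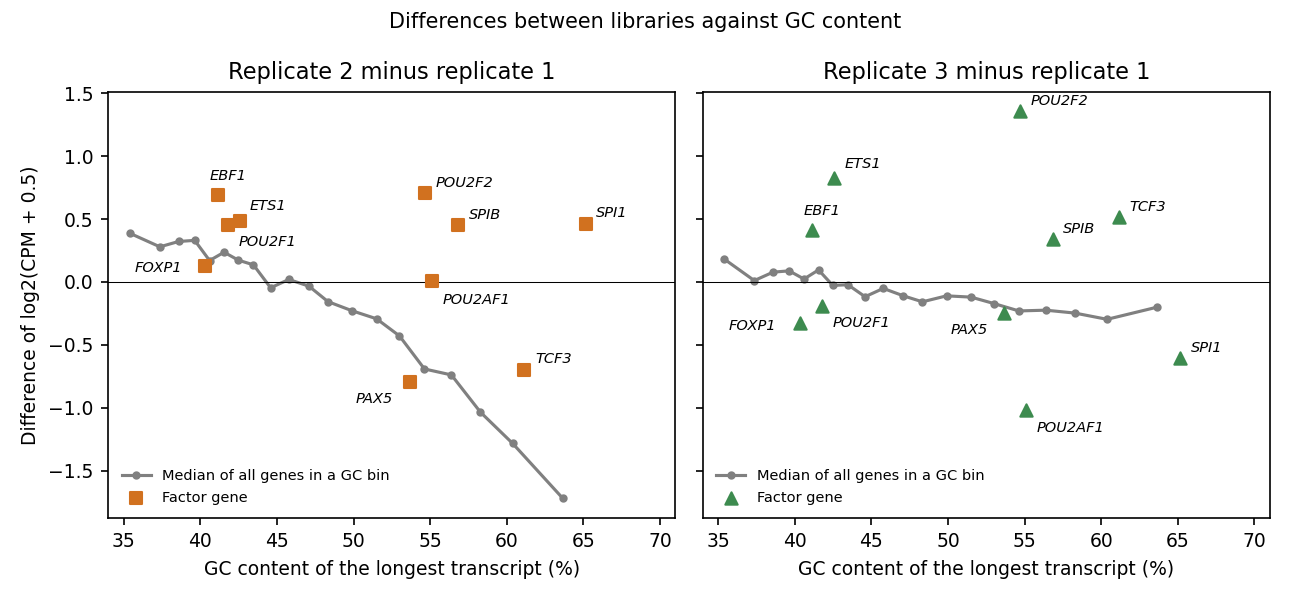
Difference of log2(CPM + 0.5) from replicate 1 for replicate 2 (left) and replicate 3 (right) against the GC content of the longest transcript in percent; grey points joined by a line are medians of all genes of at least 10 CPM in 20 GC bins, and coloured symbols are the factor genes. In replicate 2 SPI1, POU2F2 and SPIB lie farthest above the line, and in replicate 3 POU2F2 lies 1.36 above 0 and POU2AF1 1.01 below.

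Neighbouring annotations overlap exons of 4 of the genes. PAX5, POU2AF1 and FOXP1 have exons that overlap a gene on the opposite strand, by 80, 236 and 57 bases, 3 of 10 where 42.8% of all matched genes have such an overlap. The sources used here do not say whether the counting used strand. The partner of PAX5, AL161781.2, had 2, 0 and 0 counts, and the other partners were not analysed here. SPIB shares 839 exon bases with AC020909.1 and FOXP1 2539 with AC097634.4 on the same strand, where the counting could split reads between them, so both levels are uncertain to that extent.

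Relatives and partners of the 10 genes ranged widely. Of 24 listed genes 15 were in the table, and 8 of these reached 1 CPM in all 3 libraries, where 68.0% of all genes did. TCF4, which encodes an E protein that can pair with that of TCF3, had 317, 280 and 378 CPM, a mean of 325 ± 49.5 CPM, and TCF12, another E protein gene, had 95.9 ± 25.6 CPM. Per kb of merged exon TCF3 had 9.75 ± 3.93, TCF4 11.7 ± 1.78 and TCF12 10.2 ± 2.71 CPM. The log2 ratio of TCF3 to TCF4 was -0.24, -0.76 and 0.02, a mean of -0.32 ± 0.40 (exact permutation p = 0.50, also 0.50 adjusted), so they did not differ beyond the spread. With longest transcripts in place of merged exons the ratio was -1.61, with TCF4 higher in all 3 libraries.

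ID proteins bind E proteins and keep them off DNA. ID2 had 57.8, 23.3 and 31.5 CPM, a mean of 37.5 ± 18.04 CPM and 17.0 ± 8.18 CPM per kb, with replicate 1 above the other two. ID1 had 4, 0 and 1 counts and ID3 8, 1 and 1 counts, and ID4 was not analysed here. ELF1, an ETS factor, had 42.7 ± 9.38 CPM, or 9.85 CPM per kb, and SPIC, the third gene of the SPI group, 10.8 ± 2.40 CPM, or 9.52 CPM per kb. Of 8 relatives tested by chi-square 5 varied, where 67.2% of all tested genes did. TCF4, ID2 and ELF1 have exons that overlap a gene on the opposite strand.

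Other regulators of the B lineage ranged from moderate levels to the detection limit. All 14 listed were found and 11 passed 1 CPM throughout, where 68.0% of all genes did. Of 11 tested 9 varied, where 67.2% of all tested genes did, and without replicate 1 4 of 11 varied, where 33.8% did. ETV6, an ETS repressor, had 153 ± 40.5 CPM, CBFB, the partner subunit of RUNX factors, 130 ± 27.9 and ZBTB7A, a zinc finger repressor, 64.6 ± 33.3 CPM. ZBTB7A had 27.6 CPM in replicate 1 and 74.2 and 92.1 in replicates 2 and 3. The 3 below 1 CPM in some library, named after their values were seen, were KLF2 with 2, 0 and 0 counts, MYB with 4, 5 and 1 and MEF2B with 4, 3 and 2. The median of the 14 genes was 2.89 CPM per kb, below the 10.0 of the factor genes and above the 2.22 of all genes.

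Genes that the factors are known to activate ranged from abundant to undetected. Of 20 listed genes 13 reached 1 CPM in all libraries, where 68.0% of all genes in the table did. MS4A1, which encodes the surface antigen CD20, had 848, 625 and 739 CPM, a mean of 737 ± 112 CPM. CD79A, a chain of the B cell receptor and a target of EBF1 and PAX5, had 437, 353 and 903 CPM, a mean of 564 ± 296 CPM, and the adaptor gene BLNK, a PAX5 target, had 501, 234 and 321 CPM, a mean of 352 ± 136 CPM. The 7 that did not reach 1 CPM throughout were CR2, a complement receptor of mature B cells, and 6 genes of B cell precursors. Of these VPREB1 and RAG2 had no count in any library, VPREB3 had 2, 0 and 0 counts, IGLL1 1, 0 and 1, DNTT 5, 4 and 1, and RAG1 20, 9 and 1. These 7 genes were singled out after their values were seen. By the chi-square test 12 of 15 tested targets varied, where 67.2% of all tested genes did. Replicate 1 held the highest level of 10 of the 18 with a count, and of 43.1% of all genes of at least 10 CPM. These sets are unlike, because the 18 include genes with few counts, such as VPREB3 and IGLL1. BLNK has exons that overlap a gene on the opposite strand.

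Some of the genes that PAX5 is known to hold down were detected. Of 8 listed 5 were in the table, and 4 of them reached 1 CPM in every library, where 68.0% of all genes did. FLT3, CD28 and CCR2 were not analysed here. The genes named next are the 3 highest of the list by mean CPM and do not stand for the rest, such as CSF1R and NOTCH1. PRDM1, a driver of plasma cell differentiation, had 62.6, 78.6 and 59.8 CPM, a mean of 67.0 ± 10.1 CPM and 10.5 ± 1.58 CPM per kb, close to the 10.3 ± 2.75 of PAX5. XBP1, a secretory factor, had 21.5 ± 7.72 CPM, and JCHAIN, the joining chain of antibodies, had 3.0, 9.43 and 26.1 CPM from 15, 15 and 34 counts. Of 4 tested genes 2 varied, where 67.2% of all tested genes did: XBP1 (chi-square test, adjusted p = 0.0136) and JCHAIN (8.92e-15). JCHAIN exons overlap a gene on the opposite strand.

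**Figure D4:**
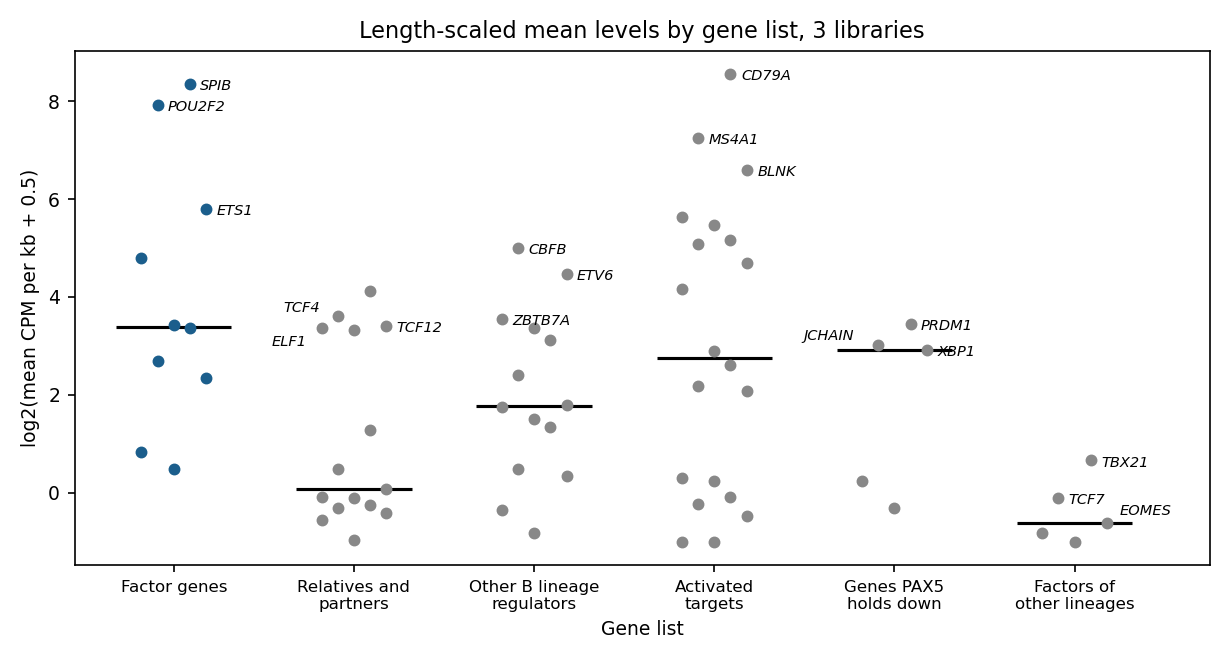
Mean level over 3 libraries as log2(CPM per kb + 0.5) for the genes in the table, by list; each point is a gene, black lines are list medians and the 3 genes with the highest mean CPM in each list are named. SPIB and POU2F2 stand with CD79A and MS4A1 at the top, and the 5 factors of other lineages, with a median of 0.146 CPM per kb, lie among the lowest genes of the other lists.

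Factors of other blood lineages were at or near the detection limit. Of 16 listed 5 were in the table, and 2 reached 1 CPM in every library, where 68.0% of all genes did. TCF7, a T cell factor, had 16, 12 and 3 counts, TBX21, a factor of T and natural killer cells, 19, 5 and 2, and EOMES, its relative, 8, 0 and 0. The summed level of the 5 genes was 3.84 to 10.7 CPM in a library. TCF7 exons overlap a gene on the opposite strand.

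B cell markers were present with 1 exception. Of 8 listed B cell markers 7 reached 1 CPM in every library, where 68.0% of all genes did. The summed level of the 8 was 1954 to 6405 CPM. The exception was HLA-DRA, a chain of the antigen-presenting class II molecule, at 0, 2 and 12 counts. Of 9 T and natural killer cell markers 2 were in the table, with a sum of 0.629 to 18.8 CPM, most of it CD5 at 87, 1 and 3 counts, while CD2 had 7, 0 and 0. Of 8 myeloid markers 4 were in the table, with a sum of 44.6 to 62.8 CPM, led by MPO at 24.7 ± 6.22 and ITGAM at 19.4 ± 3.23 CPM, while LYZ had 5.44 ± 1.39 CPM. None of the 4 erythroid markers was analysed here, and 2 of 5 stromal and epithelial markers summed to 19.5 to 50.6 CPM, mostly KRT8. Their part in the levels of the factor genes was not tested. These marker genes were singled out after their values were seen.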

How the data were processed

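RNA was sequenced in 3 libraries of 1 labelled group. The submitters' processing notes name STAR, edgeR and hg38 (versions, counting tool, strand setting, annotation release: not given in the sources used here). Raw counts per gene were deposited by the authors, and log2 CPM values for the same genes, which serve only as an alternative. Counts were scaled with TMM (edgeR 4.0.16, R 4.3.3). Symbols, positions and exon lengths are those of GENCODE release 29 (GRCh38), matched without the ID version for 15668 of 15808 IDs; the 140 others held 0.0315% to 0.0972% of a library's counts. Overlaps used pyranges 0.1.4. GC content was taken from each gene's longest transcript, and the GC correction subtracts bin medians over 20 bins of genes of at least 10 CPM. The chi-square test assumes Poisson counts, so it measures differences beyond counting noise between libraries and not conditions. A check on simulated data drew Poisson counts, with no GC shift or extra spread between libraries beyond genes changed on purpose. It therefore cannot show how the test behaves on libraries with such shifts. Poisson, binomial (Clopper-Pearson) and ratio intervals are exact at 95%.

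The 10 genes, the lists and the tests were chosen with earlier results of these data known. Named genes are the 10, the 3 highest by mean CPM of each other list, the ID and E protein genes and the genes of 6 fixed pairs. SPIC was named outside this rule, as the third gene of the SPI group, and genes singled out after their values were seen are marked as such. With 3 libraries of 1 group no gene was named for a pattern like that of a factor gene. Alternatives were DESeq2 1.42.0 size factors, column totals, the deposited log2 values, pseudocounts of 0.1 and 1, other filters and lengths, equal depth, GC correction and leaving out each library. Promoter motifs and the sequences printed were chosen after the levels were seen.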

Additional observations from a re-analysis of the deposited data

How the results depend on the processing

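No paired analysis was possible because there is 1 group. The median level of the 10 genes, 149.6 CPM, was 205.8 CPM from the deposited log2 values (the cause was not tested), and stayed within the spread between libraries under the other alternatives. The number of neighbouring pairs held apart, 5 of 9, became 8 without length correction and ranged from 5 to 8 with 1 library left out, with the 8 coming without replicate 3. The count of varying genes stayed between 6 and 8. The share of all tested genes that varied ran from 33.8% without replicate 1 to 81.1% when only genes averaging at least 50 counts were tested. It was 45.2% without replicate 2 and 56.2% without replicate 3, where 6 factor genes varied. The count of pairs with 1 sign in every library was 5 or 6. Of the 10 genes 9 or 10 passed the expression thresholds, where 48.5% of all genes passed 5 CPM and 68.0% passed 1 CPM in all 3 libraries. No family ratio reversed under the alternatives run. Depth limits SPI1, POU2F1 and EBF1, and without untreated cells no level can be set against a control.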
